A study of Mus musculus with 12 samples.

Results

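The matrix metalloproteinases (MMPs), the ADAMTS proteases (a disintegrin and metalloproteinase with thrombospondin motifs) and their tissue inhibitors (TIMPs) were followed in RNA-seq libraries of mouse prostate. The genes were taken by symbol alone, as Mmp, Adamts or Timp followed by a number, with A or B after an Mmp number allowed. This gave 46 of the 41042 listed genes, which were 23 Mmp, 19 Adamts and 4 Timp genes. Each library is the prostate of 1 of 12 male C57BL/6 mice at 15 months of age, with 3 mice in each of 4 groups. WT mice were littermate controls. Pb-ERG mice carried a TMPRSS2-ERG transgene under the probasin promoter, which is active in prostate epithelium and responds to androgen. Trp53pc-/- mice had floxed Trp53 alleles deleted by Cre recombinase under the same promoter (Pb-Cre4). The mice labelled Pb-ERG, Trp53pc-/- carried the transgene together with the deletion and are called double mutant here. The transgene and the Cre act in epithelium, while each library holds RNA of the whole tissue, stroma and immune cells included. In such bulk samples, fewer cells of a type and less RNA per cell cannot be told apart. Values are FPKM, fragment counts divided by exon length and by library total, which allow levels of different genes to be set side by side.

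MMPs are zinc-dependent endopeptidases that are made as inactive proenzymes and cleave collagens, gelatins, laminins, proteoglycans and growth factor precursors outside the cell or at its surface. ADAMTS enzymes are secreted relatives that process procollagens and cut the large proteoglycans. The TIMPs bind the active site of MMPs, and Timp3 also that of several ADAM and ADAMTS enzymes. Most MMPs are made by fibroblasts, endothelium and immune cells, whereas matrilysin (Mmp7) is typical of glandular epithelium. Collagenase and stromelysin genes are textbook targets of the transcription factors AP-1 and ETS, and ERG is an ETS factor.

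The promoters are shown first because 10 of the Mmp genes lie next to each other. They run from Mmp13 to Mmp7 along chromosome 9, from position 7272514 to 7699585 (GRCm38), with only 2 other listed genes within these 427 kb. A RefSeq promoter entry (GRCm38.p6) was found for 32 of the 46 genes, with 35 start sites, and the 250 bases before each start were searched on both strands for the AP-1 letters TGANTCA, where N is any base, and for the ETS core AGGAAG. The AP-1 letters were in 8 of the 35 windows (22.9%), against 6.75% of all 32851 windows of this length, and all 8 belonged to the chromosome 9 genes. Among the 22 genes elsewhere with an entry, 0 held them. The 8 matches are printed 5′ to 3′ on the gene's strand with 15 bases on either side and the AP-1 letters in capitals, so that the genes can be compared with their levels further on.
Mmp13: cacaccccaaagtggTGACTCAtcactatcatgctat
Mmp12: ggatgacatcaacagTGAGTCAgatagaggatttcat
Mmp1b: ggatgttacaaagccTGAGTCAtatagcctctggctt
Mmp3: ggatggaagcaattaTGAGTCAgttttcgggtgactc
Mmp1a: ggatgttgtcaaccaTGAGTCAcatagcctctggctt
Mmp10: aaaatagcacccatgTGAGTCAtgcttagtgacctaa
Mmp20: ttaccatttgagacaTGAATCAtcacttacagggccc
Mmp7: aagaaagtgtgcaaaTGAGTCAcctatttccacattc

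The first capital of these matches stands 35 bases before the start in Mmp13, 44 in Mmp12, 93 in Mmp1b, 46 in Mmp3, 73 in Mmp1a, 63 in Mmp10, 95 in Mmp20 and 63 in Mmp7. The Mmp12 match belongs to the second of its start sites. Mmp1a and Mmp1b are close copies of each other, so reads of one can be counted for the other. The other chromosome 9 genes, Mmp8 and Mmp27, held no AP-1 letters in this window.

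The ETS core was in 14 of the 35 windows (40.0%), against 29.5% of all windows. Of the 13 genes that held it, Timp1, Timp3, Mmp12 and Mmp14 rose in double mutant vs WT by the test described below, where 22% of all tested genes rose. Timp3 lost this call after the scaling described there. The core of Mmp12 belongs to the first of its start sites. Mmp3, Mmp7, Mmp8, Mmp13, Mmp25, Timp4 and Adamts12 did not pass the test in double mutant vs WT, and Mmp1b and Mmp21 were not tested. The windows of Timp1 and Mmp14, chosen as genes called in every fit without 1 mouse, are printed with the ETS core in capitals. In Timp1 (chrX:20869916-20870165, plus strand) it stood 175 and 99 bases before the start. In Mmp14 (chr14:54431348-54431597, plus strand) it stood 209 bases before the start.
Timp1: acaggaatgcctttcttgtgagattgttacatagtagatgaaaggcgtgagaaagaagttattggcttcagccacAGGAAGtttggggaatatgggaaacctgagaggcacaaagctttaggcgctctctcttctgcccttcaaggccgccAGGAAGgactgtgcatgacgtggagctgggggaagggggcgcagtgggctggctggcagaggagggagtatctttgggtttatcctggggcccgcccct
Mmp14: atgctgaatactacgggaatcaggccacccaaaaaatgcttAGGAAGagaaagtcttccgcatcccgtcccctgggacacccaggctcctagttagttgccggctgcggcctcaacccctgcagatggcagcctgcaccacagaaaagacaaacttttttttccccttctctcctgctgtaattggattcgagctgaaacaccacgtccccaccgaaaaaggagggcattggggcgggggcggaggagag

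Letters in a window are a description and no binding was measured here. Timp2, Adamts2, Mmp15 and Mmp23 also rose, and held neither motif in these 250 bases. Mmp2, Mmp19, Adamts7 and Adamts15, which rose as well, had no entry.

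In WT prostate, Mmp7 stood far above every other gene of the 3 families, at 1529 ± 1120 FPKM (mean ± SD, n = 3). The next were Timp2 at 65.8 ± 23.2, Timp4 at 44.2 ± 15.8, Timp3 at 42.8 ± 8.52, Mmp15 at 15.5 ± 1.89, Mmp2 at 8.22 ± 1.34, Mmp14 at 7.44 ± 1.09 and Timp1 at 4.76 ± 0.870 FPKM. The mice of Timp2, Timp4 and Timp3 overlapped in their values, so the order of these inhibitors is not resolved. Mmp7 made up 94.7% to 98.4% of the summed MMP FPKM of a WT library and 87.1% to 96.6% in the other libraries, except for 16.9% in double mutant replicate 3. All ADAMTS genes together summed to 8.20 to 11.8 FPKM in WT. Of the 46 genes, 39 had enough fragments to be tested. The 7 that were not tested are Mmp1a, Mmp1b, Mmp10, Mmp21, Mmp27, Adamts13 and Adamts18, each with at least 1 fragment in some library.

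**Figure D1:**
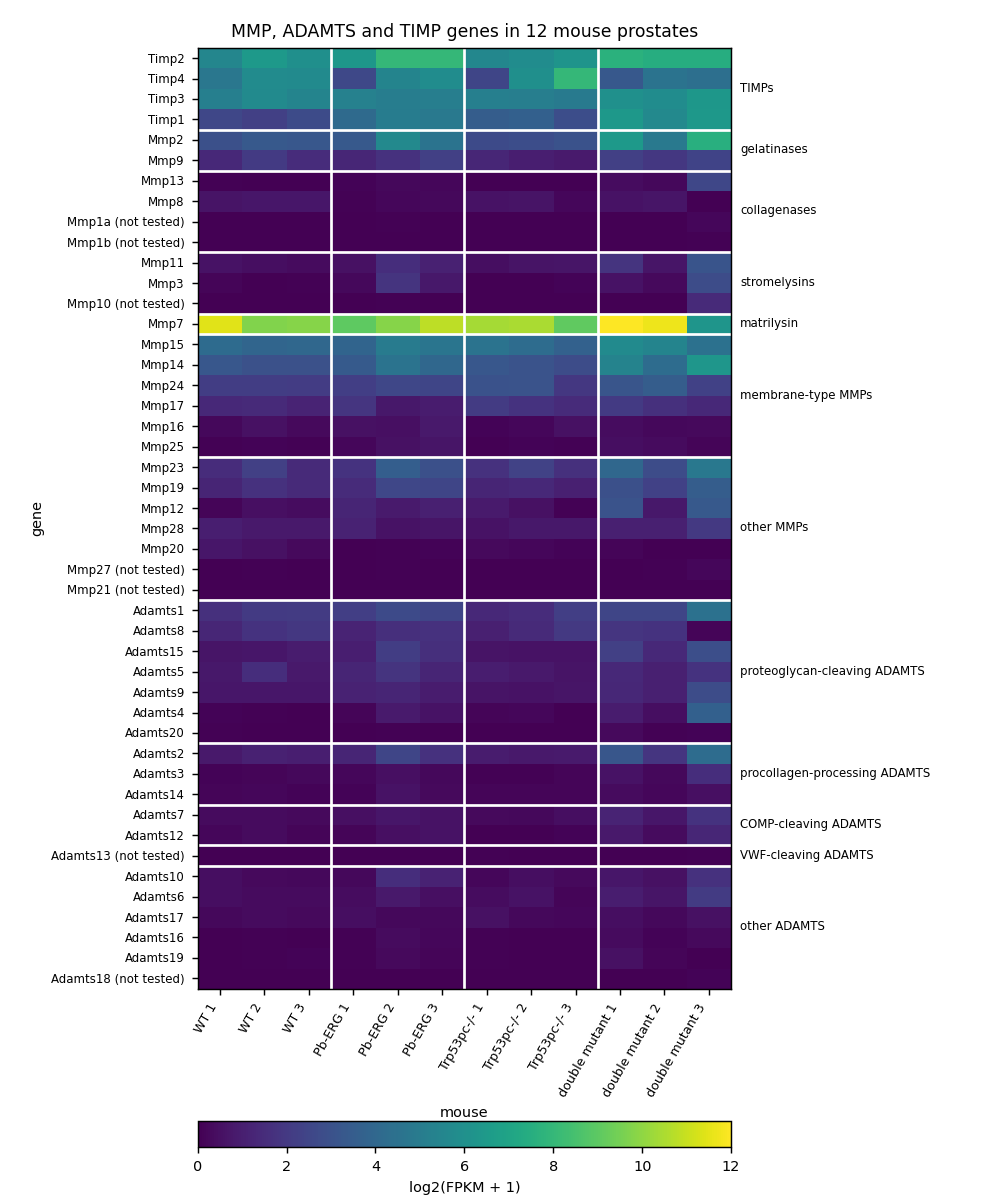
Colour gives log2(FPKM + 1) of each of the 46 genes (rows, grouped by class) in each of the 12 mice (columns, white lines between groups). Mmp7 is the brightest row in every mouse except double mutant replicate 3. There it is at 75.5 FPKM and below Mmp2, Timp2, Timp1, Timp3 and Mmp14. Most ADAMTS rows are dark except in that mouse.

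The libraries held 19747635 to 32565774 fragments (median 23786832), and the library labelled double mutant replicate 3 stood apart from the other 11. Its Pbsn (probasin, the secretory product of luminal cells) was at 53.3 FPKM, against 5505 to 20035 in the others, and its smooth muscle list (5 genes) summed to 147 FPKM, against 529 to 2608. Its proliferation list (4 genes) summed to 94.5 FPKM, against 2.85 to 16.8, and its skeletal muscle list (4 genes) to 401 FPKM, against 20.4 to 192. The highest of the 12 values fell in this library for 22 of the 39 tested genes (56.4%), and for 35.5% of all 17623 genes tested. Results of the 39 genes that rest on it are given with and without it or in each mouse. Erg was at 8.26 to 27.1 FPKM in the 6 transgenic mice and 0.268 to 0.925 in the other 6, without overlap, whereas whole-gene Trp53 FPKM did not separate the deleted from the intact libraries, whose status is taken from the labels. Seminal vesicle secretory genes (5 genes), a sign of neighbouring tissue, summed to 1.87 to 49046 FPKM and did not follow the groups.

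Markers of several other cell types moved with the groups and are given once here, to be read beside each result on fibroblast or immune cell proteases. Counts of markers that rose are those of double mutant vs WT on FPKM as deposited, where 22% of all tested genes rose and 1.4% fell. Marker counts under another scaling are not given. The 6 fibroblast markers summed to 263 to 445 FPKM in WT, 340 to 934 in Pb-ERG, 206 to 283 in Trp53pc-/- and 591 to 1389 in double mutant mice, and 4 of the 6 rose in the double mutant. The 6 macrophage markers summed to 33.6 to 65.4, 65.0 to 228, 38.1 to 66.0 and 191 to 308 FPKM in the same order, and all 6 rose in the double mutant. The 4 endothelial markers summed to 10.4 to 19.1, 16 to 23.5, 9.56 to 11.2 and 19.4 to 38.1 FPKM, with 3 of 4 rising. The 5 T cell markers summed to 2.09 to 3.92, 5.36 to 26.4, 2.99 to 5.92 and 9.42 to 16.1 FPKM, with 3 of 5 rising. The 5 neutrophil markers summed to 0.568 to 1.97, 2.67 to 20.9, 0.407 to 2.11 and 2.77 to 269 FPKM, with 1 of 5 rising and Ly6g at 0 in the 3 WT mice. None of the 5 smooth muscle markers, the 4 basal markers and the 5 B and plasma cell markers passed the test in limma. Of the 8 luminal markers 2 rose and 1 fell, and all 4 proliferation genes rose. The part of all these markers in the changes of the proteases was not tested.

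**Figure D2:**
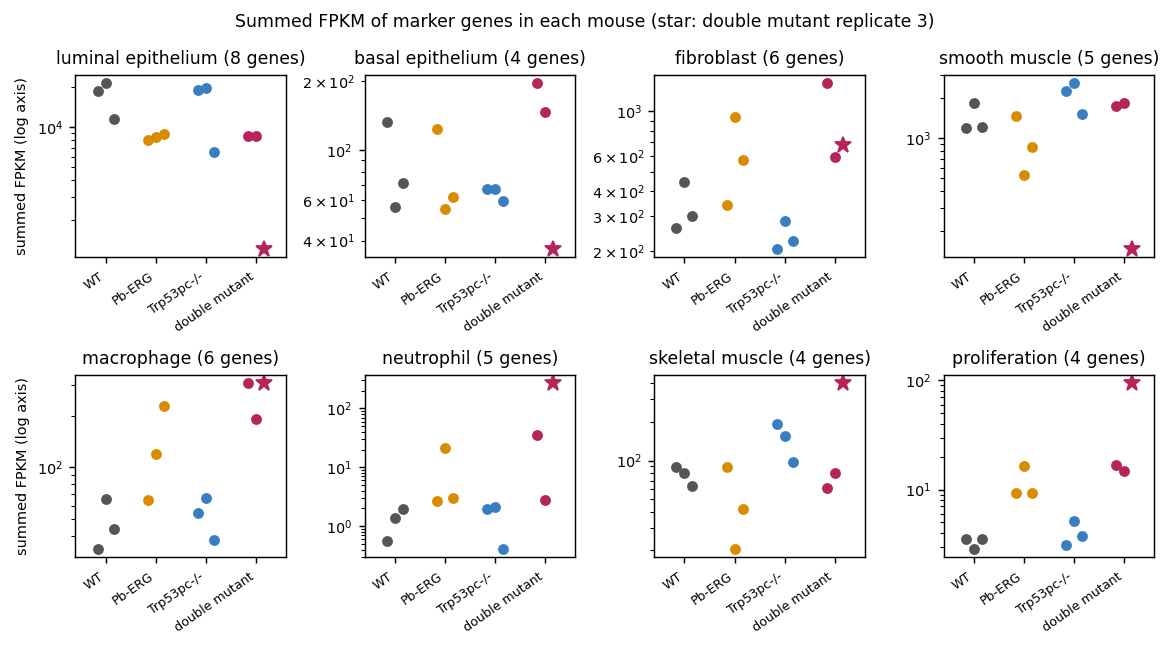
Each panel shows the summed FPKM (log axis) of a marker list in each mouse, by group, with a star for double mutant replicate 3. Fibroblast and macrophage sums of the double mutant mice lie above those of all WT mice, and the star lies lowest for luminal, basal and smooth muscle markers and highest for neutrophil, skeletal muscle and proliferation genes.

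The comparison of the double mutant with WT asks what the transgene and the deletion together did to the families. It gave more and larger rises than any other comparison with WT, led by the inhibitor Timp1 and the gelatinase Mmp2, and 1 fall, of Mmp20. Genes were tested on log2(FPKM + 1), a scale that understates changes of low genes, with limma over all 12 mice and the Benjamini-Hochberg adjustment over 17623 genes, and are called at an adjusted p under 0.05. Of the 39 tested genes, 12 rose (30.8%) and 1 fell (2.56%), against 22% and 1.4% of all tested genes. The median log2 change was 0.64 over the 39 and 0.35 over all tested genes, so the count of the 39 is to be read against that of all genes. When each library was scaled by the median of ratios between libraries, the median of all genes became 0.015, and 9 of the 39 still rose (23.1%) and 1 fell, against 8.07% and 6.11% of all tested genes. The genes that lost the call with this scaling were Timp2, Timp3 and Mmp15. Of all calls, 94.0% were rises as deposited (3880 higher and 247 lower) and 56.9% after scaling (1423 and 1076). At an adjusted p under 0.001, of the 39 only Timp1 was called, against 0.204% of all tested genes. The mice of the groups did not overlap for 27 higher and 2 lower genes (69.2% and 5.13%), against 44.7% and 5.29% of all tested genes.

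**Figure D3:**
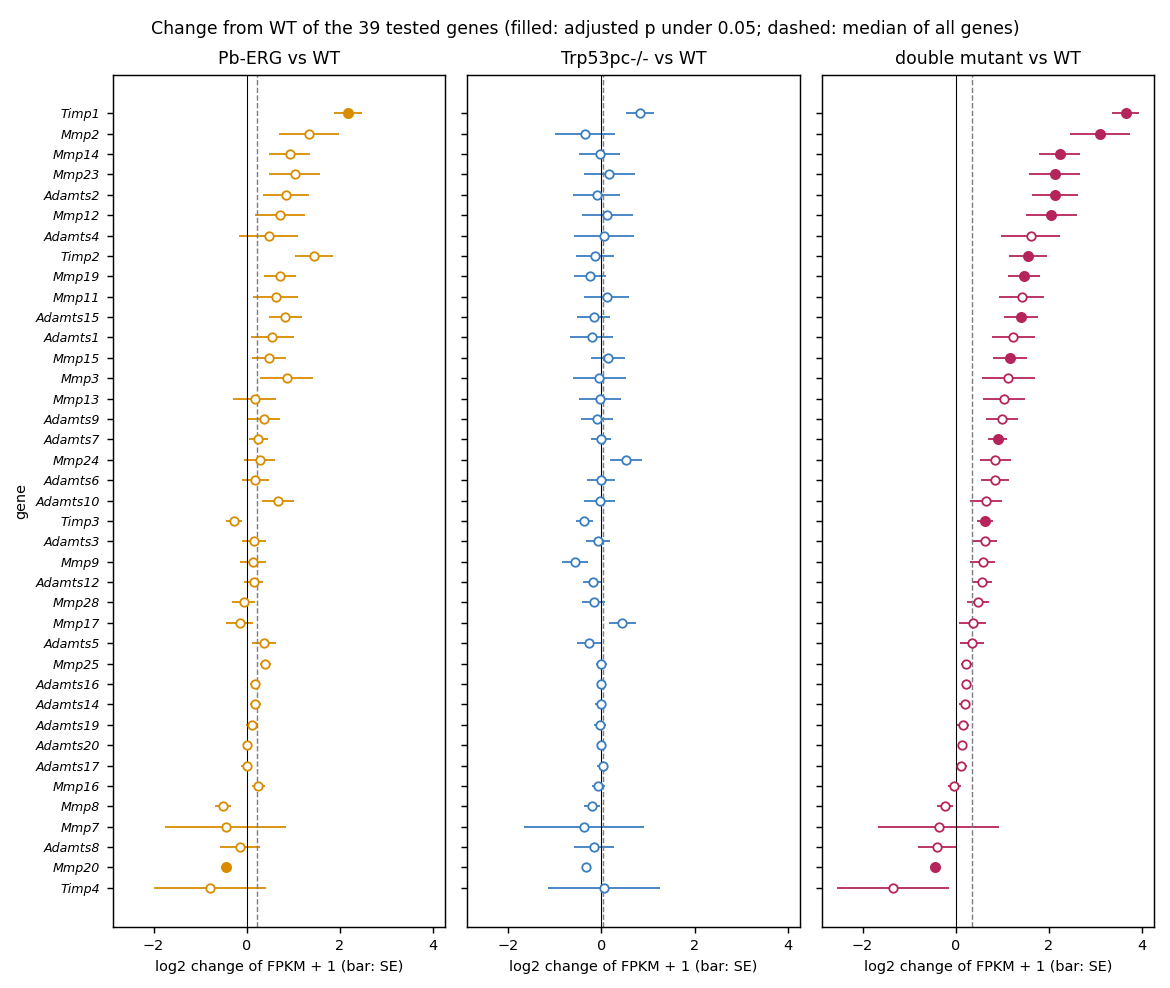
Points give the log2 change of FPKM + 1 from WT with its SE for the 39 tested genes in Pb-ERG, Trp53pc-/- and double mutant mice, filled where the adjusted p is under 0.05, and the dashed line marks the median of all tested genes. The double mutant panel holds 13 filled points, the Pb-ERG panel 2 and the Trp53pc-/- panel 0.

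These counts depend on single mice. Here and below, the share of all tested genes called in a fit without 1 mouse is not given. Counts from such fits therefore show only which members were called. Without WT replicate 1, 4 genes rose (Timp1, Mmp2, Mmp14 and Adamts7) and 0 fell. Without WT replicate 3, 3 rose (Timp1, Mmp2 and Mmp14), and Mmp20 fell. Without double mutant replicate 1, 6 rose, and without double mutant replicate 2, 20 rose, in both cases with Mmp20 falling. Leaving out double mutant replicate 3 gave 10 rises and the fall of Mmp20. Of these 10, 7 were already called with that mouse (Timp1, Mmp2, Mmp14, Mmp15, Mmp19, Adamts2 and Adamts7), and Mmp13, Mmp24 and Adamts9 were added. Both other double mutant mice lay above all WT mice for 30 of the 39 genes (76.9%), and for 53.5% of all tested genes. Timp1, Mmp2 and Mmp14 were called in all 6 fits that left out 1 mouse.

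Of the 4 TIMPs, 3 rose in the double mutant, where 22% of all tested genes rose, and after scaling 1 of them, Timp1, was still called. Timp1 (chromosome X, 20870166 to 20874735, plus strand) is the inducible inhibitor of the family. It was at 4.79, 3.88 and 5.62 FPKM in the WT mice, 17.0, 31.6 and 27.8 in the Pb-ERG mice, 10.6, 11.6 and 6.22 in the Trp53pc-/- mice and 84.1, 49.8 and 83.2 in the double mutant mice. The 4 groups were stacked without overlap, in the order WT, Trp53pc-/-, Pb-ERG and double mutant. The double mutant mean of 72.4 ± 19.6 FPKM was 15.2 times the WT mean, with a log2 change of 3.64 (SE 0.30, adjusted p = 0.00042) that stayed between 3.51 and 3.89 when any 1 mouse was left out.

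Timp2 (chromosome 11, 118301069 to 118355506, minus strand), which inhibits MMPs and also takes part in the activation of pro-Mmp2 by Mmp14, had the highest mean of the inhibitors in WT. It was at 44.4, 90.4 and 62.7 FPKM in the WT mice, 81.4, 253 and 250 in the Pb-ERG mice, 45.3, 56.1 and 73.9 in the Trp53pc-/- mice and 201, 179 and 180 in the double mutant mice. The double mutant values were close together and above all WT values, and Pb-ERG replicate 1 lay within the WT range while the other Pb-ERG mice were the highest of all. Its log2 change from WT in the double mutant was 1.54 (SE 0.41, adjusted p = 0.026), and 1.05 with an adjusted p of 0.085 after scaling. It held the call in 2 of the 6 fits without 1 mouse.

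Timp3 (chromosome 10, 86300372 to 86349506, plus strand), a matrix-bound inhibitor, was at 35.3, 52.1 and 41.1 FPKM in the WT mice, 37.6, 32.7 and 34.4 in the Pb-ERG mice, 35.5, 33.6 and 29.1 in the Trp53pc-/- mice and 64.8, 55.6 and 80.0 in the double mutant mice. The double mutant mice stood above the other 9, which overlapped among themselves. The log2 change from WT was 0.63 (SE 0.18, adjusted p = 0.030), and 0.14 after scaling (adjusted p = 0.63), a fall in size of over 1.5 times. Of the 6 fits without 1 mouse, only those without WT replicate 2 or double mutant replicate 2 called Timp3. Without double mutant replicate 3 its log2 change was 0.50 (adjusted p = 0.080). Exons of Syn3 on the other strand cover 21.3% of the exon bases of Timp3, and libraries without strand cannot assign those reads.

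Timp4 (chromosome 6, 115245616 to 115251849, minus strand) varied widely between mice of a group. It was at 25.9, 53.7 and 52.9 FPKM in the WT mice, 5.16, 42.0 and 57.0 in the Pb-ERG mice, 4.61, 61.9 and 252 in the Trp53pc-/- mice and 8.92, 22.5 and 19.8 in the double mutant mice. All double mutant values lay below all WT values, but with this spread the log2 change of -1.34 (SE 1.21) had an adjusted p of 0.42.

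**Figure D4:**
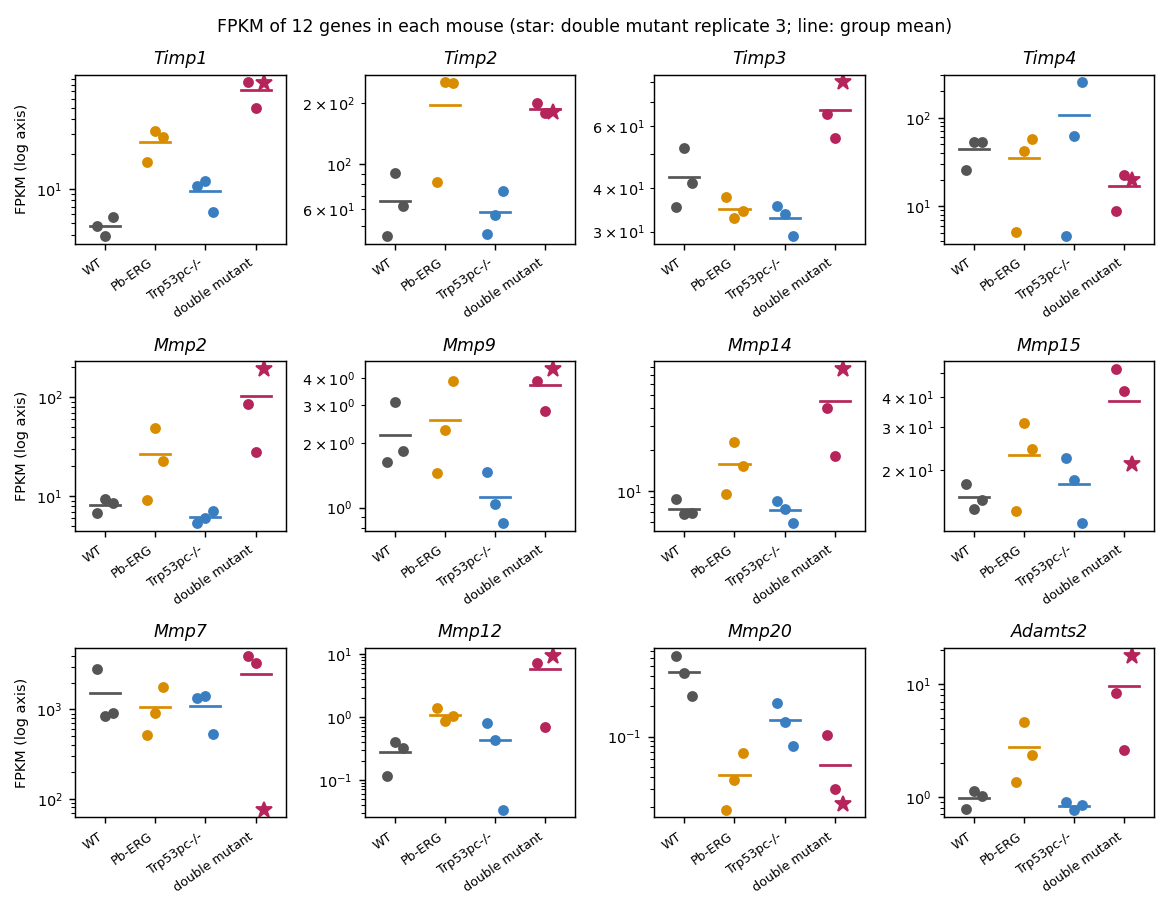
Points give the FPKM (log axis, a different range in each panel) of 12 genes in each mouse, with a line at the group mean and a star for double mutant replicate 3. Timp1 separates all 4 groups, Mmp2 and Mmp14 spread widely within the double mutant group but above WT, and the star is the lowest point for Mmp7.

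Of the gelatinases, which cut denatured collagen and basement membrane collagen, Mmp2 rose and Mmp9 did not pass the test. Mmp2 (chromosome 8, 92827328 to 92853417, plus strand) was at 6.72, 9.30 and 8.63 FPKM in the WT mice, 9.26, 49.0 and 22.7 in the Pb-ERG mice, 5.39, 6.08 and 7.06 in the Trp53pc-/- mice and 85.1, 28 and 192 in the double mutant mice. Every double mutant mouse exceeded every WT and Trp53pc-/- mouse, and the highest Pb-ERG mouse exceeded the lowest double mutant mouse. The double mutant mean was 12.4 times the WT mean, with a log2 change of 3.10 (SE 0.65, adjusted p = 0.012), which ranged from 2.45 to 3.82 over the fits without 1 mouse. Without double mutant replicate 3 the highest double mutant value was 85.1 FPKM, and the call remained. Mmp9 (chromosome 2, 164948219 to 164955850, plus strand), a gelatinase of neutrophils and macrophages, was at 1.63, 3.09 and 1.83 FPKM in the WT mice, 1.44, 2.3 and 3.89 in the Pb-ERG mice, 1.47, 1.04 and 0.848 in the Trp53pc-/- mice and 3.88, 2.81 and 4.41 in the double mutant mice. Its double mutant and WT values overlapped (log2 change 0.58, SE 0.28, adjusted p = 0.14).

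Of the 6 membrane-type MMPs, Mmp14 and Mmp15 rose in the double mutant. Mmp14 (chromosome 14, 54431604 to 54441258, plus strand) is the cell-surface collagenase that activates pro-Mmp2. It was at 8.70, 6.75 and 6.87 FPKM in the WT mice, 9.49, 22.8 and 15.2 in the Pb-ERG mice, 8.5, 7.39 and 5.87 in the Trp53pc-/- mice and 40.3, 18.0 and 77.3 in the double mutant mice. All 6 transgenic mice exceeded all 6 others, and the log2 change from WT in the double mutant was 2.23 (SE 0.44, adjusted p = 0.0094). Mmp2 and Mmp14 had the same order of the 3 mice within the double mutant group, with replicate 3 highest and replicate 2 lowest, and the same order within the Pb-ERG group.

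Mmp15 (chromosome 8, 95352268 to 95374293, plus strand), another transmembrane enzyme and in WT the most abundant MMP after Mmp7, was at 17.6, 13.8 and 15.1 FPKM in the WT mice, 13.5, 31.1 and 24.5 in the Pb-ERG mice, 22.4, 18.2 and 12.1 in the Trp53pc-/- mice and 52.0, 42.2 and 21.1 in the double mutant mice. Here double mutant replicate 3 was the lowest of its group. The log2 change from WT was 1.17 (SE 0.36, adjusted p = 0.042), and 0.69 after scaling (adjusted p = 0.18). Of the 6 fits without 1 mouse, only that without double mutant replicate 3 called Mmp15 (log2 change 1.54, adjusted p = 0.016). Mmp24, Mmp17, Mmp16 and Mmp25 did not pass the test, with log2 changes of -0.036 to 0.85. Mmp25, a lipid-anchored enzyme known from neutrophils, was at most 0.0864 FPKM in WT and at least 0.123 in the double mutant, without overlap.

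Matrilysin, Mmp7 (chromosome 9, 7692090 to 7699585, plus strand), varied widely as well. It was at 2822, 850 and 915 FPKM in the WT mice, 524, 903 and 1801 in the Pb-ERG mice, 1328, 1427 and 535 in the Trp53pc-/- mice and 3970, 3348 and 75.5 in the double mutant mice. The highest and the lowest of the 12 values both came from the double mutant group. The log2 change from WT was -0.37 (SE 1.29, adjusted p = 0.84) with all mice and 1.49 (SE 0.72, adjusted p = 0.18) without double mutant replicate 3, and 0.19 without WT replicate 1, so its direction depends on single mice and it was called in none of the 6 fits without 1 mouse. Pbsn and Krt5, a basal keratin, were lowest in that same library, Krt5 at 1.49 FPKM against 14.1 to 44.6 elsewhere, and their part in the low Mmp7 was not tested. Of the exon bases of Mmp7, 11.5% are shared with AV064505 on the other strand.

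Among the MMPs outside these classes, Mmp23, Mmp12 and Mmp19 rose and Mmp20 fell. Mmp23 (chromosome 4, 155650655 to 155653384, minus strand), a transmembrane MMP of unusual structure, was at 1.87, 3.79 and 1.71 FPKM in the WT mice, 2.36, 11.2 and 6.68 in the Pb-ERG mice, 2.29, 4.13 and 2.12 in the Trp53pc-/- mice and 15.3, 5.85 and 26.8 in the double mutant mice. The double mutant mice lay above all WT mice, and replicates 3 and 2 were again the highest and lowest of the group (log2 change 2.13, SE 0.55, adjusted p = 0.023). Mmp12 (chromosome 9, 7344397 to 7369499, plus strand), the macrophage elastase, was at 0.115, 0.402 and 0.318 FPKM in the WT mice, 1.37, 0.848 and 1.05 in the Pb-ERG mice, 0.814, 0.432 and 0.0333 in the Trp53pc-/- mice and 7.34, 0.693 and 9.37 in the double mutant mice. All Pb-ERG and double mutant values exceeded the WT values, while double mutant replicate 2 lay below the Pb-ERG mice (log2 change from WT 2.05, SE 0.54, adjusted p = 0.025). The call of Mmp12 held in 1 of 6 fits without 1 mouse, that of Mmp23 in 2.

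Mmp19 (chromosome 10, 128790953 to 128800824, plus strand), an MMP of basement membrane and vessels, was at 1.40, 2.26 and 1.66 FPKM in the WT mice, 1.76, 4.84 and 4.64 in the Pb-ERG mice, 1.34, 1.60 and 1.05 in the Trp53pc-/- mice and 6.68, 3.99 and 10.6 in the double mutant mice. The double mutant mice were above all WT mice, and Pb-ERG replicate 1 was within the WT range (double mutant log2 change 1.47, SE 0.34, adjusted p = 0.016). Tmem198b on the other strand covers 22.3% of its exon bases.

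Mmp20 (chromosome 9, 7628231 to 7674968, plus strand), enamelysin, known for its role in forming teeth, was the only member that fell. It was at 0.631, 0.430 and 0.250 FPKM in the WT mice, 0.0187, 0.0368 and 0.0686 in the Pb-ERG mice, 0.216, 0.139 and 0.0809 in the Trp53pc-/- mice and 0.104, 0.0301 and 0.0211 in the double mutant mice. The 3 WT values lay above the other 9, on at most 54 fragments in a library and as few as 2. The double mutant mean was 0.118 times the WT mean, and the log2 change of -0.44 (SE 0.10, adjusted p = 0.016) is small because of the added 1 FPKM.

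The remaining chromosome 9 genes were low next to Mmp7. Apart from Mmp7, the 9 others summed to 0.374 to 3.94 FPKM in the WT, Pb-ERG and Trp53pc-/- mice, to 8.83 and 1.83 in double mutant replicates 1 and 2 and to 22.3 in replicate 3. Mmp13, a collagenase, was at 0.0139 to 0.0429 FPKM in WT, 0.318 and 0.203 in double mutant replicates 1 and 2 and 4.84 in replicate 3. Stromelysin Mmp3, which cuts proteoglycans and activates other proMMPs, was at 0.0270 to 0.128 FPKM in WT, 0.520 and 0.219 in double mutant replicates 1 and 2 and 5.93 in replicate 3. Neither passed the test in the double mutant (adjusted p = 0.12 and 0.16), although their groups did not overlap. Mmp10, the other stromelysin of the run, was at 0 in all WT mice and at 1.73 FPKM, from 86 fragments, in double mutant replicate 3. Mmp8, the neutrophil collagenase, did not pass the test in either transgenic group against WT, and was at 0.546 to 0.653 FPKM in WT and 0.0501 to 0.183 in Pb-ERG. In the double mutant it was at 0.520 and 0.623 FPKM in replicates 1 and 2, and at 0.0282 in replicate 3 alone. Of the genes printed above with the AP-1 letters, Mmp12 rose and Mmp20 fell, where 22% of all tested genes rose and 1.4% fell. Mmp3, Mmp7 and Mmp13 did not pass the test, and Mmp1a, Mmp1b and Mmp10 were not tested.

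The ADAMTS genes were low. In the double mutant 3 of the 17 tested rose, 1 in each of 3 classes, and 0 fell, where 22% of all tested genes rose. After scaling the same 3 were still called, where 8.07% of all tested genes rose. The count is to be read beside these shares. Adamts2 (chromosome 11, 50602084 to 50807573, plus strand), which removes the amino-terminal propeptide of fibrillar procollagens, was at 0.780, 1.13 and 1.01 FPKM in the WT mice, 1.35, 4.63 and 2.33 in the Pb-ERG mice, 0.893, 0.767 and 0.845 in the Trp53pc-/- mice and 8.31, 2.61 and 17.8 in the double mutant mice. All 6 transgenic mice exceeded the 6 others, and the double mutant mean was 9.84 times the WT mean (log2 change 2.13, SE 0.50, adjusted p = 0.016). Adamts15 (chromosome 9, 30899155 to 30922452, minus strand), a proteoglycan-cleaving enzyme, was at 0.626, 0.647 and 0.867 FPKM in the WT mice, 1.04, 3.53 and 2.03 in the Pb-ERG mice, 0.568, 0.478 and 0.521 in the Trp53pc-/- mice and 3.79, 1.60 and 6.43 in the double mutant mice. The transgenic mice again lay above all others (log2 change 1.40, SE 0.36, adjusted p = 0.022).

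Adamts7 (chromosome 9, 90163069 to 90208071, plus strand), which cuts cartilage oligomeric matrix protein, was at 0.294, 0.271 and 0.240 FPKM in the WT mice, 0.391, 0.645 and 0.494 in the Pb-ERG mice, 0.239, 0.203 and 0.346 in the Trp53pc-/- mice and 1.31, 0.662 and 2.42 in the double mutant mice. The double mutant mice were above all others, with a log2 change from WT of 0.90 (SE 0.21, adjusted p = 0.016). Adamts4, an aggrecanase, was at 0.866 and 0.379 FPKM in double mutant replicates 1 and 2 and at 11.8 in replicate 3, against at most 0.0876 in WT, and did not pass the test (log2 change 1.60, adjusted p = 0.086). Adamts8, another proteoglycan-cleaving enzyme, was at 2.60 and 2.39 FPKM in double mutant replicates 1 and 2 but 0.124 in replicate 3, below the 1.41 to 2.79 FPKM of WT. Adamts5, the main aggrecanase of cartilage, was at 0.700 to 2 FPKM in WT and 1.09 to 2.34 in the double mutant, with overlap. The calls of Adamts2 and Adamts7 held in 4 of 6 fits without 1 mouse, and that of Adamts15 in 1.

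**Figure D5:**
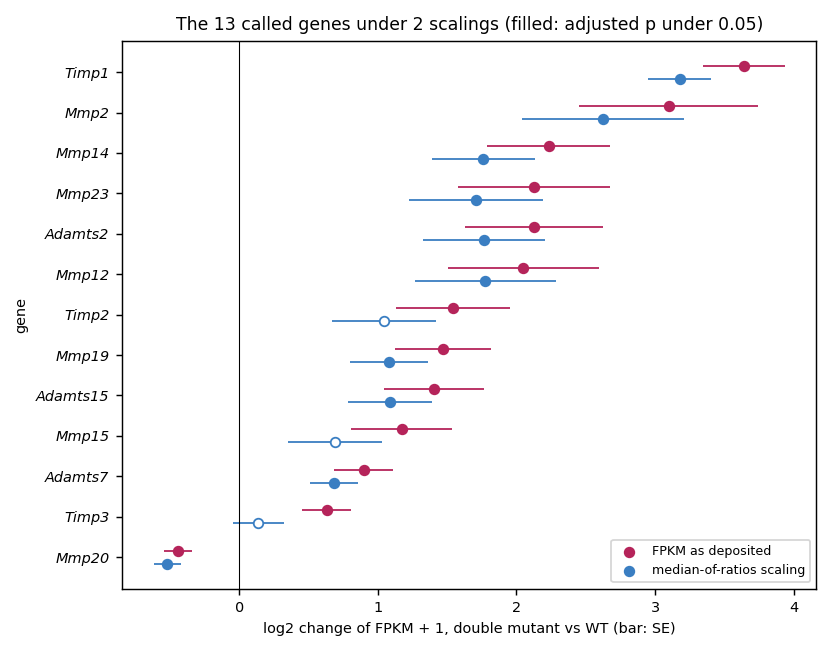
For the 13 genes called in double mutant vs WT, points give the log2 change with its SE for FPKM as deposited and after median-of-ratios scaling, filled where the adjusted p is under 0.05. Every point moves to the left after scaling, and Timp2, Mmp15 and Timp3 become open.

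The comparison of Pb-ERG with WT asks what the transgene did alone. Timp1 rose and Mmp20 fell, and the other 37 genes did not pass the test. This is 2.56% of the 39 genes in each direction, against 2% and 0.176% of all tested genes. After scaling the calls were again these 2, against 1.11% and 0.437% of all tested genes, and the share of rises among all calls went from 91.9% to 71.8%. The Timp1 mean rose 5.35 times, to 25.5 ± 7.57 FPKM (log2 change 2.17, SE 0.30, adjusted p = 0.0078), and the call held in all 6 fits without 1 mouse. Mmp20 fell by 0.46 on the log2 scale (SE 0.10, adjusted p = 0.049), a call that held in 1 of 6 such fits, the fit without Pb-ERG replicate 1. That mouse was the lowest of its group for Timp1, Timp2, Mmp2, Mmp14 and Adamts2. Without it, 5 genes rose (Timp1, Timp2, Mmp19, Mmp25 and Adamts10). With it, Timp2 changed by 1.44 (SE 0.41, adjusted p = 0.092) and Mmp2 by 1.33 (SE 0.65, adjusted p = 0.24). The groups did not overlap for 14 genes that were higher and 2 that were lower (35.9% and 5.13%), against 27.6% and 4.96% of all tested genes, and the median log2 change was 0.25 over the 39 and 0.22 over all tested genes.

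With the deletion alone, in Trp53pc-/- vs WT, limma called 0 of the 39 genes in either direction, and 0% of all tested genes. At an unadjusted p under 0.05, 1 of the 39 was higher, Timp1 (log2 change 0.83, adjusted p = 0.94). At the same threshold 1 was lower, Mmp20 (log2 change -0.32, adjusted p = 0.94). Over all 17623 tested genes, 579 were higher and 329 lower at this threshold. Among the 39, limma voom on the recovered fragments also called 0. The groups did not overlap for 2 higher genes, Timp1 and Mmp17, and for 6 lower ones, Mmp9, Mmp20, Mmp28, Adamts9, Adamts12 and Adamts15, which is 5.13% and 15.4% of the 39, against 8.53% and 6.68% of all tested genes. The median log2 change was -0.040 over the 39 and 0.028 over all tested genes.

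Adding the deletion to the transgene, in double mutant vs Pb-ERG, gave 0 calls among the 39 genes, against 0.017% of all tested genes higher and 0% lower, or 0.017% and 0.0113% after scaling. Unadjusted p-values were under 0.05 for 10 of the 39 members, each of them higher. Over all 17623 tested genes, 1843 were higher and 433 lower at this threshold. The 10 were led by Timp3 (log2 change 0.90, SE 0.18, adjusted p = 0.17) and Timp1 (log2 change 1.47, SE 0.30, adjusted p = 0.19). Among the 39, limma voom also called 0. Without double mutant replicate 2, Timp1, Timp3, Mmp12 and Adamts7 were called as higher. With all mice, 4 members did not overlap in the higher direction (Timp1, Timp3, Adamts7 and Adamts20) and Mmp16 in the lower one, which is 10.3% and 2.56% of the 39, against 12% and 3.23% of all tested genes. The non-additive effect, which is the double mutant change less the sum of the Pb-ERG and Trp53pc-/- changes, gave 0 calls, as it did over all tested genes (0%), also with limma voom. Unadjusted p-values were under 0.05 for 5 of the 39 members, all above additive. Over all 17623 tested genes, 854 were above and 279 below additive at this threshold. Among the members, Timp3 had the smallest p, at a non-additive log2 difference of 1.27 (SE 0.25, adjusted p = 0.61). The deletion effect over both ERG states, 6 mice with the deletion against 6 without, gave 0 calls (0% of all tested genes). At an unadjusted p under 0.05, 3 of the 39 members were higher and 0 lower, led by Timp1 (log2 change 1.15, adjusted p = 0.35). Over all 17623 tested genes, 1476 were higher and 407 lower at this threshold. Among the 39, limma voom called 0.

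Adding the transgene to the deletion, in double mutant vs Trp53pc-/-, raised 14 of the 39 genes (35.9%) and lowered 0, against 18.7% and 1.03% of all tested genes. The largest rises were those of Mmp2 (log2 change 3.46, SE 0.65, adjusted p = 0.0081), Timp1 (2.81, SE 0.30, adjusted p = 0.00086) and Mmp14 (2.27, SE 0.44, adjusted p = 0.0092). Mmp9 rose here, by 1.15 (SE 0.28, adjusted p = 0.019), from 0.848 to 1.47 FPKM in Trp53pc-/- to 2.81 to 4.41 FPKM in the double mutant, as did Timp3, by 0.996 (SE 0.18, adjusted p = 0.0068). The call of Mmp9 was lost without Trp53pc-/- replicate 2, Trp53pc-/- replicate 3 or double mutant replicate 1. Timp1 alone passed an adjusted p of 0.001, against 0.227% of all tested genes, and 27 members did not overlap, all higher (69.2%, against 37% higher and 3.39% lower over all tested genes). After scaling, 9 rose and 0 fell, against 8.27% and 6.33% of all tested genes, the share of rises among all calls going from 94.8% to 56.6%, and Timp3, Timp2, Mmp23, Mmp12 and Adamts9 were no longer called. Leaving out Trp53pc-/- replicate 2 gave 6 rises, Trp53pc-/- replicate 1 or 3 or double mutant replicate 1 gave 9 each, and double mutant replicate 2 gave 21. Without double mutant replicate 3 it was 13.

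The transgene effect over both Trp53 states compares the 6 transgenic mice with the 6 others and shares its mice with the comparisons above. It raised 18 of the 39 genes (46.2%) and lowered 1, Mmp20 (2.56%), against 29.3% and 2.11% of all tested genes. After scaling these were 11 and 2, with Mmp8 as the other gene lowered, against 12.5% and 10.1%, and the share of rises among all calls went from 93.3% to 55.3%. At an adjusted p under 0.001, Timp1 alone was called, against 1.06% of all tested genes. Of the 18, 10 were raised in all 12 fits without 1 mouse, which were Timp1, Timp2, Mmp2, Mmp14, Mmp19, Mmp23, Mmp25, Adamts2, Adamts7 and Adamts15. The counts raised were 10 without WT replicate 1, WT replicate 3, Pb-ERG replicate 2, Pb-ERG replicate 3 or Trp53pc-/- replicate 2, 11 without Trp53pc-/- replicate 3, 12 without double mutant replicate 1, 13 without Trp53pc-/- replicate 1, 14 without WT replicate 2, 20 without Pb-ERG replicate 1, 24 without double mutant replicate 2 and 18 without double mutant replicate 3. Timp1 changed by 2.49 (SE 0.21, adjusted p = 0.00012), Mmp2 by 2.39 (SE 0.46, adjusted p = 0.0050), Mmp14 by 1.60 (SE 0.31, adjusted p = 0.0055) and Timp2 by 1.56 (SE 0.29, adjusted p = 0.0046). Timp3 passed the test at 0.36 (SE 0.12, adjusted p = 0.048) and was at -0.019 after scaling (adjusted p = 0.93), so its direction depends on the scaling. For 11 genes the 6 transgenic mice lay above all 6 others (28.2%, against 11.8% of all tested genes), among them Timp1, Mmp14, Mmp25, Mmp3, Mmp13, Adamts2 and Adamts15. Fibroblast markers rose in 5 of 6, macrophage markers in 6 of 6 and neutrophil markers in 3 of 5 in this comparison. These counts, on FPKM as deposited, stand beside the 29.3% of all tested genes that rose, and the part of the markers was not tested.

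Ratios of inhibitors and enzymes are given as values. Timp1 per Mmp2 was 0.417 to 0.712 in the WT mice, 0.645 to 1.84 in the Pb-ERG mice, 0.880 to 1.97 in the Trp53pc-/- mice and 0.433 to 1.78 in the double mutant mice, so Timp1 and Mmp2 FPKM were within a few-fold of each other in all 12 libraries. The summed MMPs without Mmp7, per summed TIMPs, were 0.237 to 0.418 in WT, 0.240 to 0.373 in Pb-ERG, 0.0994 to 0.565 in Trp53pc-/- and 0.383 to 1.02 in double mutant mice, with the highest value in replicate 3. Within the TIMP sum, Timp1 made up 1.94% to 4.34% in WT and 16.2% to 23.4% in the double mutant, without overlap.

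Other genes of matrix proteolysis were read from a list, on FPKM as deposited, where 94.0% of all calls in double mutant vs WT were rises. Counts after scaling are not given for this list. Of 46 tested genes of the 49 listed (activators, other inhibitors, ADAMTS-like proteins, ADAM proteases, cathepsins and matrix substrates), 19 rose and 0 fell in double mutant vs WT, where 22% of all tested genes rose. In Pb-ERG vs WT 2 rose and 0 fell, where 2% of all tested genes rose. Over both Trp53 states the transgene raised 25 and lowered 0, where 29.3% of all tested genes rose. In Trp53pc-/- vs WT limma called 0 of them, as of all tested genes. Among the activators of the plasmin system, Plaur, the urokinase receptor, rose by 3.64 (adjusted p = 0.0045) and Plat, tissue plasminogen activator, by 3.68 (adjusted p = 0.012), while Plau, urokinase, was at -0.39 (adjusted p = 0.75). Reck, a membrane inhibitor of MMPs, was at 0.058 (adjusted p = 0.86). Of the 6 cathepsins, lysosomal proteases, 5 rose, with Ctss at 3.39 (adjusted p = 0.0026) and Ctsk, which cuts collagen, at 2.84 (adjusted p = 0.015). Of the 9 tested substrates, 4 rose, among them the proteoglycan Bgn by 2.31 (adjusted p = 0.00099) and fibronectin, Fn1, by 2.44 (adjusted p = 0.0042), and Bgn also rose in Pb-ERG mice, by 2.08 (adjusted p = 0.0043). In double mutant replicates 1, 2 and 3, Plat was at 32.8, 23.3 and 232 FPKM and Plaur at 8.62, 11.9 and 54.7. Ctsk was at 37.6, 11.9 and 80.0 FPKM and Fn1 at 62.3, 48.3 and 157. Replicate 3 was the highest of its group for these, but not for Ctss (128, 75.6 and 123 FPKM) or Bgn (366, 170 and 270). Replicates 1 and 2 also lay above all WT mice for each of them. Changes without replicate 3 are not given for these genes.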

How the data were processed

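RNA of prostate tissue was sequenced from 12 mice, 3 per genotype group, and groups were taken from the sample titles. According to the methods, the authors used the TruSeq RNA Sample Prep Kit v2, which does not mark strand, paired-end reads, STAR, RSeQC for counting and DESeq2 for testing. The submitters' processing notes name STAR 2.5.2b and GRCm38/mm10. The FPKM values deposited by the authors are fragment counts divided by exon length and library total, and were used as deposited. Multiplied by exon length and 1 total per library, 100% of the values gave whole fragments (tolerance 0.01), of which 91.1% to 97.0% of each total fell on listed genes. The difference between mice, not counting error, sets the precision for all but the lowest genes. No SD or p-value here covers more than the spread between 3 mice a group.

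Testing was limited to the 17623 genes with a CPM of 0.420 or more in 3 or more libraries, equal to 10 fragments at the median depth, and 15 or more fragments over the 12 libraries. limma 3.58.1 with a mean-variance trend (R 4.3.3) was fitted to log2(FPKM + 1) with 4 group means and 8 residual degrees of freedom, and p-values were adjusted by the Benjamini-Hochberg method over all tested genes. The fit was also run on simulated counts, with all groups drawn from WT means and a set of genes changed in the double mutant. These counts held no library like double mutant replicate 3 and no shift of all genes. The run therefore does not cover these 2 features of the data. Tables and figures were made with Python 3.11.15, pandas 2.3.3, numpy 2.4.6 and matplotlib 3.10.9. Alternatives were median-of-ratios scaling, a pseudocount of 0.1, no filter on low genes, a minimum of 10 fragments per library, fits restricted to the compared groups, the replicate number as a block, limma voom on the recovered fragments, thresholds, and each mouse left out in turn. Median-of-ratios scaling without double mutant replicate 3 was chosen after seeing the data. Gene and promoter positions are GRCm38 (GENCODE M21 for exon overlaps, RefSeq GRCm38.p6 for promoters).

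The members, gene lists and tests were chosen with earlier results of these data known. Values in every mouse are given for the 4 Timp genes, the 6 members highest in WT, Mmp2, Mmp7, Mmp9 and Mmp14, the 10 largest called changes in double mutant vs WT, and the called members of the other pairwise comparisons and the non-additive effect (at most 8 in each, by p). Other members are given by class with examples. The result of 1 gene of the matrix proteolysis lists is not reported here on its own, and the counts over these lists include it.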

Additional observations from a re-analysis of the deposited data

How the results depend on the processing

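The log2 changes of called members, of the TIMPs and of the other members named with one kept their direction under the alternatives recomputed, apart from these. Median-of-ratios scaling put the transgene effect on Timp3 at -0.019. Timp4 in Trp53pc-/- vs WT went to -0.0043 with a pseudocount of 0.1 and -0.019 with limma voom. Without 1 mouse, it ranged from -1.19 to 1.55, Timp4 in Pb-ERG vs WT from -1.40 to 0.22, Timp2 in Trp53pc-/- vs WT from -0.39 to 0.12, Mmp7 in double mutant vs WT from -1.36 (without double mutant replicate 1) to 1.49 (without replicate 3) and Mmp16 there from -0.098 to 0.056. None of these was called except the Timp3 value as deposited. The members called in double mutant vs WT were 13, and 6 with only the groups compared, 7 with scaling and without double mutant replicate 3, and 1 at an adjusted p under 0.001. In Pb-ERG vs WT they were 2, and 1 with only the groups compared, with at least 10 fragments in every library, with limma voom and with a log2 change of at least 1, and 0 at 0.001. In double mutant vs Trp53pc-/- they were 14, and 9 with scaling with or without double mutant replicate 3, 6 with only the groups compared and 1 at 0.001. The transgene effect gave 19 calls, 9 with a log2 change of at least 1 and 1 at 0.001. Leaving out 1 mouse gave 4 to 21 calls in double mutant vs WT, 1 to 6 in Pb-ERG vs WT, 0 to 4 in double mutant vs Pb-ERG, 6 to 21 in double mutant vs Trp53pc-/- and 11 to 25 for the transgene effect. Where no share of all tested genes is given above, the counts of calls in this section are not set against one. The median log2 change of the members went from 0.64 to 1.43 with a pseudocount of 0.1 and 1.78 with voom in double mutant vs WT, from 0.25 to 0.69 and 0.87 in Pb-ERG vs WT, and from -0.040 to -0.19 and -0.26 in Trp53pc-/- vs WT, where scaling gave -0.054, no filter -0.028 and 10 fragments in every library -0.070. Without 1 mouse these medians ranged from 0.47 to 0.87, from 0.18 to 0.35 and from -0.064 to -0.022. A smaller pseudocount gives low genes larger changes. The causes of the other differences were not tested. Over all groups, same-numbered mice deviated together more often than others, but not throughout. Their deviations correlated at -0.24 to 0.37 (median 0.091), over 0.1 in 8 of 18 pairs. Pairs with different numbers were over 0.1 in 6 of 36 (median -0.054), and not every mouse correlated best with its own number. Between WT and Trp53pc-/- the 3 pairs were at 0.18, 0.22 and 0.24, while pairs with different numbers reached 0.27 over all groups. The labels give no pairing, and the main fit did not take the numbers as pairs. In Trp53pc-/- vs WT 0 members were called with the block as without it. With the replicate number as a block, 11 members were called in double mutant vs WT, 1 in Pb-ERG vs WT, 14 in double mutant vs Trp53pc-/- and 14 for the transgene effect. The block ended the calls of Timp3 and Mmp15 in double mutant vs WT (adjusted p = 0.053 and 0.051), of Mmp20 in Pb-ERG vs WT (0.062), of Adamts9 in double mutant vs Trp53pc-/- (0.062), and of Mmp9, Mmp15, Timp3, Adamts9 and Adamts16 for the transgene effect (0.050 to 0.080). Depth limits the genes with under 10 fragments in most libraries, which are the 7 members not tested and, of those tested, Mmp3, Mmp13, Mmp20, Adamts16, Adamts19 and Adamts20.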
